A study of Sus scrofa with 12 samples.

Results

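The effect of ventricular pacing on gene expression was examined in the left ventricular free wall of pigs, the wall that lies farthest from a pacing lead on the septum. The comparison took the 6 free wall arrays of a series of 12 arrays, 3 from control and 3 from paced pigs, chosen by their labelled region and treatment. All were from female pigs with a labelled age of 13 months, sampled at papillary muscle level 6 months after surgery. The paced pigs had complete atrioventricular block made by catheter ablation and carried a pacemaker in VDD mode, in which sensed atrial beats trigger ventricular pacing. The control pigs are described as a sham group, matched for age, without block. Pacing thus came together with the ablated conduction, and effects of the 2 cannot be told apart in this comparison. According to the labels a ventricular lead was placed on the right ventricular septum and an atrial lead on the right atrial appendage in every animal, so the groups would share the leads. The series enrolled 12 pigs, 6 per treatment, and the labels neither tie an array to an animal nor say that the 3 arrays of a group are 3 animals. The p-values below therefore measure the spread between these arrays, part of which may be technical. The remaining 6 arrays, from the septum, entered only the estimate of that spread.

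In a heart with normal conduction the His-Purkinje system activates both sides of the left ventricle almost together. A lead on the right side of the septum starts activation there, and the wave reaches the free wall late, through slowly conducting working muscle. The late wall is stretched before it contracts and does more mechanical work, and long-term pacing of this kind is known for dyssynchrony, regional changes of wall thickness and, in some patients, pacing-induced cardiomyopathy. Genes commonly followed in such hearts encode natriuretic peptides, ion channels, calcium-handling and sarcomere proteins, collagens and metabolic enzymes.

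Signals were on the log2 scale, where a difference of 1 is a 2-fold change, and 10007 named genes entered the comparison, each through 1 probe set (the set of probes that measures a transcript). The arrays had medians between 4.3 and 4.45. The tissue label was checked against markers of working ventricular muscle. MYH7, the slow myosin heavy chain, read 12.52, 12.52 and 12.47 across the control arrays and 12.4, 12.5 and 12.46 across the paced ones. MYL2, the ventricular regulatory light chain, read 12.45, 12.42 and 12.37 in controls and 12.21, 12.51 and 12.42 in paced tissue. Both were high in all 6 arrays, with overlapping groups. The 10 tested markers of ventricular cardiomyocytes had a median difference of 0.05. TNNI3, TNNT2 and MYH6 were not analysed here.

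Paced array 2 stood apart from the other free wall arrays. Its difference from the mean of the other paced arrays had a standard deviation of 0.435 over genes, where the same measure was 0.243 to 0.314 for the other 5 arrays. In 215 genes (2.15%) it lay over 1 from the mean of the other paced arrays, against 29 to 100 genes for each other array. Its limma array weight, a measure of how closely an array follows its group, was 0.24, against 0.824 to 1.59. There were 13 genes in which paced array 2 lay more than 1 below all of the other 5 arrays, while those 5 spanned less than 1, and 4 genes in which it lay more than 1 above them. By the same measure each other array had 0 to 3 genes on the low side and 0 to 4 on the high side, with paced array 1 also at 4. Examples, chosen after their values were seen, were SMPDL3A, a phosphodiesterase-like protein, at 4.07 against 5.78 to 6.32, and MRC1, the mannose receptor of macrophages, at 5.15 against 6.29 to 6.45. On the high side LRRN4, a marker of mesothelium, read 4.3 in that array against 2.69 to 3.2. Counts over all genes are therefore given with and without paced array 2, as are some list counts and many of the gene differences.

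No named gene passed the test between paced and control free wall. In limma, 0 of 10007 genes had a Benjamini-Hochberg adjusted p under 0.05 in either direction (percent called 0.0 higher and 0.0 lower), and the smallest adjusted p of a gene was 0.191. At an unadjusted p under 0.05, 187 genes were higher (1.87%) and 278 lower (2.78%) in paced tissue, 465 in all (4.65%). Without paced array 2, 324 genes were higher (3.24%) and 363 lower (3.63%), 687 in all (6.87%), and the smallest adjusted p of a gene was 0.113. With limma array weights, which give less weight to arrays that stand apart, 1 uncharacterised gene, LOC100155553, passed as lower (difference -1.01, SE 0.12, adjusted p = 0.0398). In the unweighted fit its difference was -0.88 (adjusted p = 0.345).

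The differences between the groups were small for most genes. The median size of a difference was 0.107 on the log2 scale with a median standard error (SE) of 0.156, and 49.2% of genes were higher and 50.0% lower in paced tissue. For 9662 genes (96.6%) the whole 95% confidence interval lay within 1 of zero, that is within a 2-fold difference either way. Without paced array 2 this share was 95.8%. Differences over 1 in size occurred in 18 genes, 6 higher and 12 lower.

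One probe set fell in paced free wall, 15342515, which has no gene name in the annotation used. It was the single call among 20666 probe sets tested (percent called 0.00484 lower, 0.0 higher). It read 6.65, 6.57 and 6.73 across the control arrays and 3.65, 4.57 and 2.7 across the paced ones. The control arrays were close together, the paced arrays were spread, and every paced array lay far below the controls. The signal in paced array 3 was below the lower quartile of that array (2.96). In paced array 1 it was below the median of the array (4.3), and in paced array 2 just above it (4.45). At such low signals the size of a fold is uncertain. The fitted difference was -3.01 (SE 0.33), an 8.06-fold lower signal, with adjusted p = 0.0262. Without paced array 2 it was -3.48 (SE 0.22), or 11.1-fold, with adjusted p = 0.000212. The call was lost when only the 6 free wall arrays entered the fit (adjusted p = 0.483 for the same difference), and without any 1 of the 3 control arrays or paced array 1 (adjusted p between 0.187 and 0.235). It was also lost without any 1 of the 6 septum arrays (adjusted p between 0.0718 and 0.083).

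The genes described next were the most different ones by rule, at an unadjusted p under 0.01 with no overlap between the groups. By this rule 26 genes were higher (0.26%) and 57 lower (0.57%) in paced free wall, 83 in all, and none of the 83 passed the adjusted test. Lack of overlap alone was met by 337 genes on the higher side (3.37%) and 498 on the lower side (4.98%). Without paced array 2 the rule was met by 63 higher (0.63%) and 59 lower (0.59%) genes. Of these 122 genes, 41 were among the 83, which is 33.6% of the larger set and 49.4% of the smaller. All 83 kept their sign and an unadjusted p under 0.05 without paced array 2, a comparison that reuses the other 5 arrays.

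**Figure D1:**
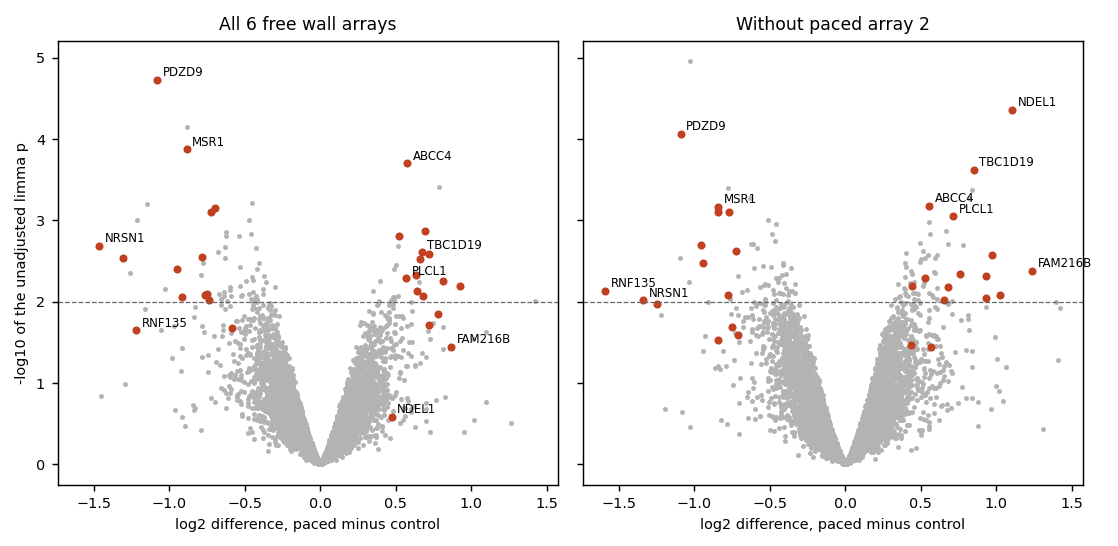
Each point is 1 of 10007 genes, with the log2 difference (paced minus control) on the horizontal axis and -log10 of the unadjusted limma p on the vertical axis, for all 6 free wall arrays (left) and without paced array 2 (right). Red points are the genes named by rule, some with their symbols, and the dashed line is the unadjusted threshold of the rule. PDZD9 and MSR1 lie far out on the lower side in both panels, while NDEL1 is near the foot of the cloud on the left (difference 0.47) and at the top of the higher side on the right (1.11).

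The 12 genes with the largest lower differences among those that met the rule follow, uncharacterised loci left out. None of them passed the adjusted test, and their order in the text is by known role only. PDZD9, a protein with a PDZ domain, the fold through which scaffolds bind membrane proteins, had the smallest p of all named genes. It read 4.6, 4.79 and 5.1 in control tissue and 3.75, 3.76 and 3.73 in paced arrays, a difference of -1.08 (SE 0.16, 2.12-fold, adjusted p = 0.191). The 3 paced arrays spanned 0.03 and lay 0.84 below the lowest control array. NRSN1, a vesicle membrane protein of neurons, read 5.43, 6.12 and 5.79 against 3.74, 4.06 and 5.14, the largest difference of the set at -1.47 (SE 0.37). Its paced arrays spread widely, and paced array 3 came closest to the controls. XKRX, a relative of the XK membrane protein, read 5.59, 5.94 and 5.03 in controls and 4.32, 4.09 and 4.23 in paced tissue, a difference of -1.31 (SE 0.35). SLC6A4, the serotonin transporter, read 6.67, 6.64 and 6.52 against 6.04, 5.25 and 5.68, a difference of -0.95 (SE 0.27). For this transporter the control arrays were close together and paced array 2 was the lowest. The SLC6A4 difference was -0.75 without paced array 2.

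ALDH5A1, the mitochondrial succinic semialdehyde dehydrogenase, read 8.01, 8.1 and 8.1 in control tissue and 6.7, 7.72 and 7.53 in paced arrays, a difference of -0.75. Paced array 1 was much the lowest array for this enzyme. NEU3, a sialidase that trims gangliosides at the plasma membrane, read 5.51, 5.42 and 5.24 against 4.62, 4.98 and 4.27, a difference of -0.77. AGT, angiotensinogen, the precursor of angiotensin, read 8.54, 8.92 and 9.08 in controls and 8.42, 8.06 and 7.85 in paced tissue, a difference of -0.74 (SE 0.24). Its groups were separated by only 0.12. TANGO2, whose loss in people causes metabolic crises with arrhythmia, read 5.56, 5.22 and 5.37 against 4.58, 4.66 and 4.74, a difference of -0.72 (SE 0.16, adjusted p = 0.664). Here the 3 paced arrays were close together and the same difference, -0.72, was found without paced array 2.

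MSR1, the class A scavenger receptor of macrophages, read 4.19, 4.34 and 4.21 in control tissue and 3.43, 3.27 and 3.38 in paced arrays, a difference of -0.89 (SE 0.16, adjusted p = 0.393). Both groups were tight, and the paced signals were near the lower quartile of their arrays, 2.93 to 3.13. CIPC, a repressor that binds the clock protein CLOCK, read 6.43, 5.84 and 5.71 against 5.06, 5.2 and 5.37, a difference of -0.78 (SE 0.21). ARRDC2, an arrestin-domain protein, read 7.14, 6.43 and 6.23 in controls and 5.68, 5.53 and 5.83 in paced tissue, a difference of -0.92. In both genes control array 1 was the highest of the 6. NSMCE1, a subunit of the SMC5/6 complex of DNA repair, read 8.92, 8.84 and 8.74 against 7.81, 8.28 and 8.31, a difference of -0.7 (SE 0.15, adjusted p = 0.664).

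On the higher side the differences were smaller. ABCC4, a transporter that exports cyclic AMP and cyclic GMP, had the most even groups, with 6.19, 6.22 and 6.1 in control tissue and 6.75, 6.79 and 6.7 in paced arrays. Its difference was 0.58 (SE 0.11, 1.49-fold, adjusted p = 0.454). The groups were separated by 0.48 and spanned 0.12 in controls and 0.09 in paced arrays. HACD1, an enzyme of very long chain fatty acid synthesis that is abundant in muscle, read 8.09, 8.38 and 8.43 against 9.19, 8.92 and 8.77, a difference of 0.66 (SE 0.18). HS3ST5, which adds sulfate groups to heparan sulfate, read 5.62, 5.39 and 5.37 in control tissue and 5.97, 6.49 and 6 in paced tissue, a difference of 0.69 (SE 0.17, adjusted p = 0.799). Paced array 2 was the highest array for this enzyme, and without it the difference was 0.53.

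GAS2L3, which links actin filaments to microtubules, read 5.22, 5.92 and 5.23 in controls and 6.27, 6.02 and 6.51 in paced arrays, a difference of 0.81 (SE 0.24). Its control array 2 was 0.1 below the lowest paced array. MAST2, a kinase that associates with microtubules, read 5.51, 5.83 and 5.52 against 6.15, 6.31 and 5.97, a difference of 0.52. PLCL1, a phospholipase C-like protein without enzyme activity, read 6.22, 6.24 and 6.33 in control tissue and 6.74, 6.53 and 7.22 in paced tissue, a difference of 0.57. For PLCL1 the paced arrays were uneven, with paced array 3 highest. TBC1D19, of a family that acts on Rab GTPases, read 4.46, 4.62 and 4.5 against 5.45, 4.84 and 5.31, a difference of 0.67 (SE 0.18). Paced array 2 was the lowest paced array for TBC1D19, and the difference was 0.85 without it.

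IQCK, a protein with a calmodulin-binding IQ motif, read 3.77, 3.55 and 3.25 in controls and 4.98, 4.24 and 4.12 in paced arrays, the largest difference of the set at 0.92 (SE 0.28). AHDC1, a DNA-binding protein with AT hooks, read 3.91, 4.74 and 4.47 against 5.23, 5 and 5.04, a difference of 0.72 (SE 0.19). PADI1, which converts arginine in proteins to citrulline, had a difference of 0.68, LRRC71 one of 0.64, and RGSL1, a relative of the regulators of G protein signalling, one of 0.63. In these 3 genes the groups were separated by 0.1 to 0.14. The control signals of PADI1 (3.41, 2.98 and 2.76) and LRRC71 (3.19, 2.91 and 3.44) were near the lower quartiles of their arrays, 2.97 to 3.05. Without paced array 2 the differences were 0.565 for PADI1, 0.435 for LRRC71 and 0.655 for RGSL1.

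**Figure D2:**
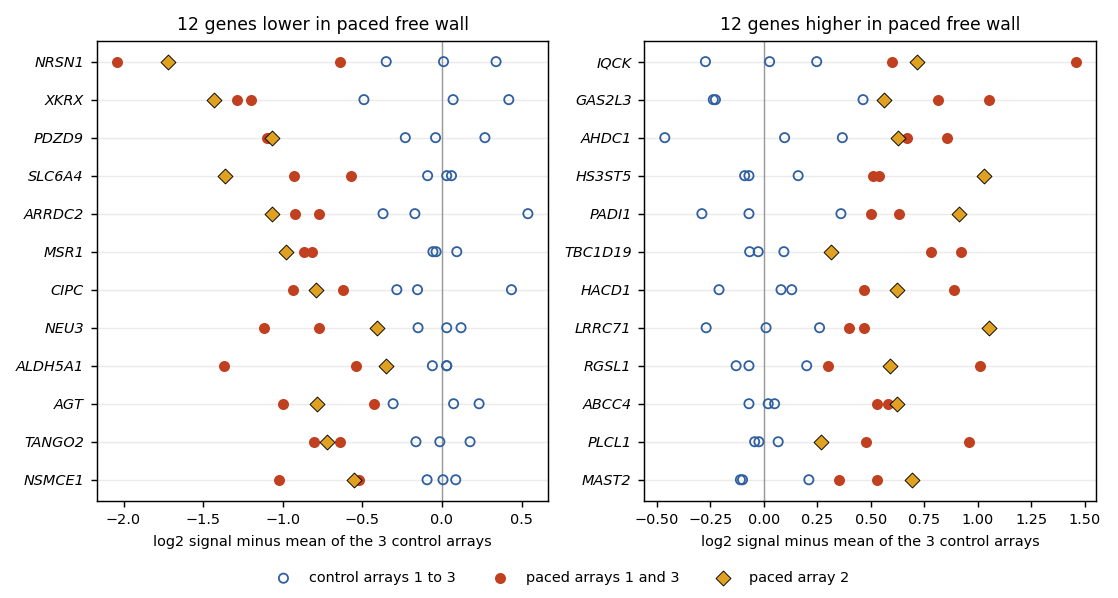
Each row is a gene, the 12 lower (left) and 12 higher (right) genes with the largest differences at an unadjusted p under 0.01, and each symbol is 1 array, plotted as its log2 signal minus the mean of the 3 control arrays. Open circles are control arrays, red circles paced arrays 1 and 3, and diamonds paced array 2. In every row the control and paced symbols do not overlap, which the choice of genes fixed. None of the 24 genes passed the adjusted test.

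Leaving out paced array 2 brought 6 further genes among the largest differences by the same rule. NDEL1, a regulator of the dynein motor, read 7.99, 7.98 and 7.67 in control tissue and 8.76, 7.09 and 9.21 in paced arrays. Paced array 2 was the lowest of the 6 and the other paced arrays the highest, so the difference was 0.47 (SE 0.4) with it and 1.11 (SE 0.17, adjusted p = 0.222) without it. PTGFR, the prostaglandin F receptor, read 5.29, 5.29 and 5.35 against 5.91, 5.77 and 6.58, a difference of 0.78, and 0.94 without that array. F5, coagulation factor V, read 3.29, 3.4 and 3.36 in controls and 4.88, 3.55 and 3.77 in paced tissue, a difference of 0.72, and 0.98 without paced array 2. FAM216B read 3.04, 2.8 and 3 against 4.93, 3.07 and 3.44, a difference of 0.87, and 1.24 without paced array 2. Its control signals were near the lower quartiles of their arrays, 2.97 to 3.05, and paced array 2 near its own, 3.13. Both F5 and FAM216B were highest in paced array 1. On the lower side RNF135, a ubiquitin ligase of the RIG-I antiviral pathway, read 5.49, 6.03 and 5.7 in control tissue and 3.22, 5.26 and 5.08 in paced arrays, a difference of -1.22 (-1.59 without paced array 2). Paced array 1 was much the lowest array for RNF135. CDX1, a homeobox factor of the intestine, read 3.93, 3.73 and 4.28 against 3.24, 3.91 and 3.03, a difference of -0.59 (-0.85 without paced array 2).

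The 2 natriuretic peptides, released by stretched muscle cells, differed between groups by less than the spread between arrays. NPPA, the atrial peptide, read 7.09, 4.75 and 8.55 in controls and 7.66, 6.38 and 5.31 in paced arrays. The control arrays alone spanned 3.8 on the log2 scale, and the difference of -0.35 had a 95% interval from -2.19 to 1.49. Its sign turned without control array 3 (0.53) and without paced array 3 (0.22). NPPB, the B-type peptide, read 3.89, 4.02 and 3.57 against 3.37, 4 and 3.46, a difference of -0.22 with an interval from -0.91 to 0.48. It was -0.41 (interval from -1.18 to 0.35) without paced array 2, and the groups no longer overlapped. MYL7, the atrial light chain, read 9.36, 10.82 and 10.51 in control tissue and 10.88, 10.68 and 11.56 in paced tissue, a difference of 0.81 (SE 0.35). The 11 tested atrial markers had a median difference of 0.07.

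Genes of pathways and markers of cell types were then described by list, over 44 lists with 624 tested genes. In limma 0 of the 624 passed the adjusted test, and the smallest adjusted p was that of MSR1, 0.393. At an unadjusted p under 0.05, 9 were higher (1.44%) and 25 lower (4.01%), beside 1.87% and 2.78% of all genes. Without paced array 2 the counts were 18 higher and 17 lower of the 624, beside 3.24% and 3.63% of all genes. The larger count on the lower side was not found in that fit. The median difference over all genes tested was 0. For 35 lists the median lay within 0.1 of zero, for 4 it was above that range and for 5 below it.

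**Figure D3:**
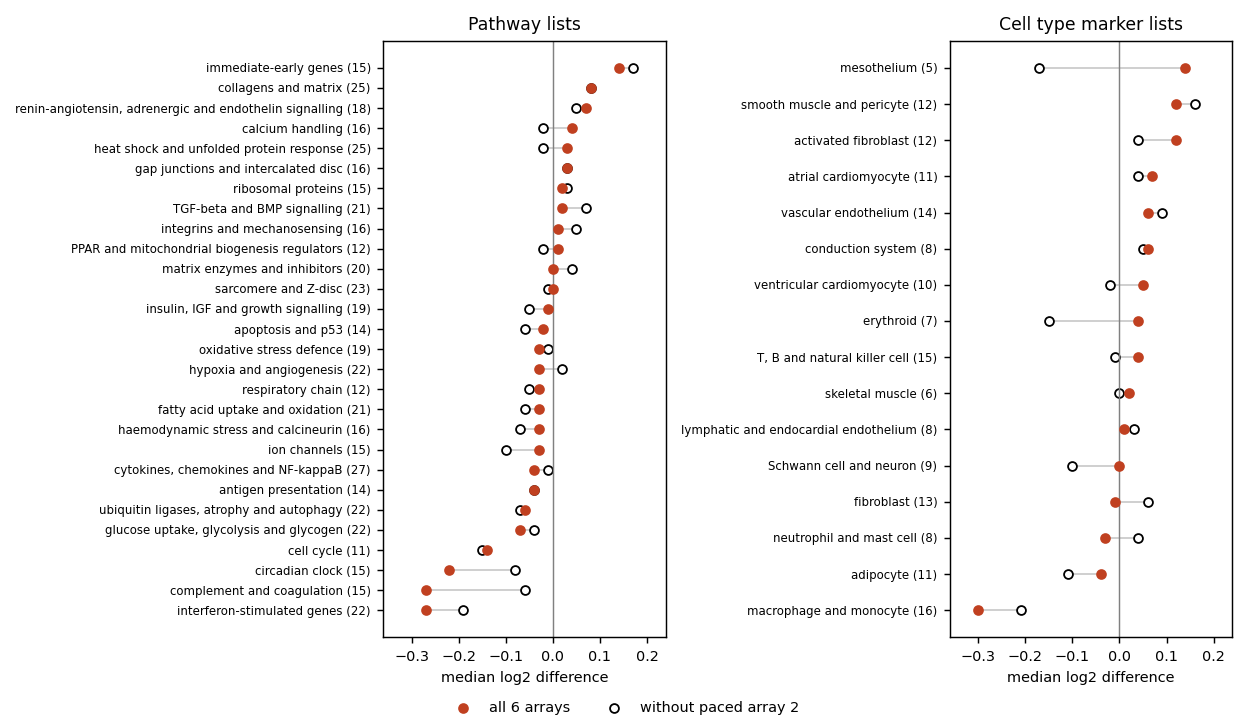
Each row is a gene list with the number of tested genes in brackets, pathways on the left and cell type markers on the right, and the horizontal axis is the median log2 difference of its genes (paced minus control). Filled circles use all 6 free wall arrays and open circles leave out paced array 2. The lowest medians are those of macrophage markers (-0.3), interferon-stimulated genes (-0.27) and complement genes (-0.27), and the complement median moved to -0.06 without paced array 2.

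Lists of contractile and electrical genes had medians near zero with all 6 arrays. Of 23 sarcomere and Z-disc genes, 11 were above and 11 below zero, with a median of 0. XIRP2, an actin-binding protein of the intercalated disc and Z-disc, read 7.01, 7.65 and 7.51 in controls and 7.92, 8.49 and 7.99 in paced arrays, a difference of 0.74 (SE 0.27). The XIRP2 difference was 0.565 without paced array 2. CSRP3, a muscle LIM protein linked to stretch sensing, read 11.24, 11.24 and 10.97 against 10.79, 10.9 and 10.9, a difference of -0.29, and a further probe set of this gene gave -0.81. ANKRD1, a stretch-responsive titin-binding protein, had a difference of -0.33 with overlapping groups. The 16 calcium-handling genes had a median of 0.04. The signal of SLN, sarcolipin, an inhibitor of the calcium pump, varied within both groups, from 4.51 to 7.35 in control and from 4.83 to 6.37 in paced tissue.

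Among 15 ion channel genes (median -0.03), KCNIP2 had the smallest p. It encodes the auxiliary subunit of the channels that carry the transient outward potassium current. KCNIP2 read 8.39, 8.63 and 8.56 in control tissue and 8.19, 8.02 and 8.08 in paced arrays, a difference of -0.43 (SE 0.11, 1.35-fold, adjusted p = 0.866). The groups were separated by 0.2, and the difference was -0.39 without paced array 2. KCNE1, the subunit of the slow delayed rectifier, had a difference of -0.33, and KCNJ2, the inward rectifier, one of -0.28, both with overlapping groups. Without paced array 2 these were -0.425 and -0.43, and the KCNE1 groups no longer overlapped. At an unadjusted p under 0.05, 1 of the 15 channel genes was lower (6.67%, beside 2.78% of all genes) and 0 higher. Without paced array 2, 3 were lower and 0 higher, beside 3.63% and 3.24% of all genes, and the list median was -0.1. The 16 genes of gap junctions and the intercalated disc had a median of 0.03, with 0 at an unadjusted p under 0.05. Without paced array 2, 1 of these 16 was higher at that threshold, beside 3.24% of all genes. The 8 conduction system markers had a median of 0.06, which turned to -0.16 without control array 1 and to -0.09 without paced array 3. HCN4, the pacemaker channel, read 4.46, 4.44 and 4.67 against 4.54, 5.02 and 4.42, and its difference of 0.14 turned to -0.04 without paced array 2.

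Signalling lists followed the same pattern of small medians. The 16 genes of haemodynamic stress and calcineurin signalling had a median of -0.03. At an unadjusted p under 0.05, 0 were higher and 2 lower (12.5%, beside 2.78% of all genes). Without paced array 2, 0 were higher and 0 lower at that threshold. RCAN1, an inhibitor and target of calcineurin, read 7.2, 6.77 and 6.25 in controls and 6.04, 5.29 and 6.14 in paced arrays, a difference of -0.92 (SE 0.39). NPR3, the clearance receptor for natriuretic peptides, read 8.67, 8.58 and 8.67 against 8.39, 7.58 and 8.35, a difference of -0.53. For both, paced array 2 was the lowest array, and the differences were -0.65 and -0.27 without it. The 18 genes of renin-angiotensin, adrenergic and endothelin signalling had a median of 0.07, with AGT, described above, the 1 member at an unadjusted p under 0.05. At that threshold 3 of the 18 members were higher and 1 of the 18 lower without paced array 2, beside 3.24% and 3.63% of all genes. ENPEP, an aminopeptidase that cleaves angiotensin II, read 6.03, 6.23 and 6.13 in controls and 6.72, 5.99 and 6.66 in paced tissue, a difference of 0.33 with paced array 2 and 0.56 without it.

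Within the metabolic lists the smallest p belonged to genes of glucose handling. Of 22 genes of glucose uptake, glycolysis and glycogen, 9 were above and 13 below zero (median -0.07). At an unadjusted p under 0.05, 2 were lower (9.09%, beside 2.78% of all genes). GPI, the second enzyme of glycolysis, read 9.26, 9.09 and 9.11 in control tissue and 8.59, 8.71 and 8.83 in paced arrays, a difference of -0.44 (SE 0.15). GYS1, muscle glycogen synthase, read 8.35, 7.99 and 7.85 against 7.47, 7.68 and 7.57, a difference of -0.49 (SE 0.18). Both enzymes had groups without overlap, and both differences were as large without paced array 2 (-0.44 and -0.54). The 21 genes of fatty acid uptake and oxidation had a median of -0.03, and the 12 respiratory chain genes one of -0.03, each with 0 at an unadjusted p under 0.05. PPARA, a nuclear receptor that drives fatty acid oxidation, read 8.65, 8.32 and 8.46 in controls and 8.18, 7.42 and 8.24 in paced tissue, a difference of -0.53 that was -0.27 without paced array 2.

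Matrix genes varied widely among the control arrays. The 25 collagens and matrix genes had a median of 0.08, with 15 above and 10 below zero. Their mean, after each gene was centred over the 6 arrays, was -0.39 in control array 1 and between 0.01 and 0.18 in the other 5, and without control array 1 the median was -0.04. LUM, the collagen-binding proteoglycan lumican, read 9.84, 10.98 and 10.84 in control tissue and 11.19, 10.98 and 11.59 in paced arrays, a difference of 0.7 (SE 0.32). LOX, which cross-links collagen, read 7.18, 6.71 and 6.77 against 6.43, 5.85 and 6.42, a difference of -0.65 (SE 0.26). Without paced array 2 the LOX difference was -0.46, with a 95% interval from -1.05 to 0.13. The 21 genes of TGF-beta and BMP signalling had a median of 0.02. Markers of fibroblasts had a median of -0.01 over 13 genes, and those of activated fibroblasts 0.12 over 12 genes, which was 0.04 without paced array 2. COL1A1, the main chain of type I collagen, read 6.04, 7.1 and 6.84 against 7.04, 7.54 and 6.64, a difference of 0.41, and its other probe set gave 0.44. The COL1A1 difference was 0.18 without paced array 2.

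Macrophage and monocyte markers had a median of -0.3, the lowest of the 44 lists with all 6 arrays, with 12 of 16 tested genes below zero. Without control array 1 or without paced array 3 the interferon list was lower, as given below. At an unadjusted p under 0.05, 3 macrophage markers were lower (18.8%) and 0 higher, beside 2.78% and 1.87% of all genes. Their centred means were 0.1, 0.22 and 0.08 across the control arrays and 0, -0.21 and -0.2 across the paced ones, so the groups did not overlap. Without paced array 2 the median was -0.21 with 15 of 16 below zero, and it was -0.19 when probe sets of low signal were kept. Besides MSR1, the smallest p belonged to chains of complement C1q, which tissue macrophages secrete. C1QC read 6.31, 6.15 and 6.02 in controls and 5.8, 5.15 and 5.61 in paced arrays, a difference of -0.64 (SE 0.2), and -0.46 without paced array 2. C1QA read 6.3, 6.16 and 6.05 against 6, 5.99 and 5.67, a difference of -0.28. Some markers of the list differed little, with CD14 at 0.05 and MARCO at 0.03, both picked after their values were seen, and CD68 and CD163 were not analysed here. In such bulk tissue fewer cells of a type and less RNA per cell cannot be told apart, which also holds for MSR1.

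Complement and coagulation genes shared the C1q chains with that list. Of 15 tested, 10 were below zero (median -0.27), with 3 lower at an unadjusted p under 0.05 (20.0%, beside 2.78% of all genes). Besides C1QC and C1QA, these included C1R, the first protease of the classical pathway, which read 6.82, 6.81 and 6.76 in control tissue and 6.65, 6.09 and 6.43 in paced arrays, a difference of -0.41 (SE 0.16), and -0.26 without paced array 2. The median was -0.06 without paced array 2 and -0.08 when probe sets of low signal were kept. Without paced array 2, 2 of the 15 were lower and 1 higher at an unadjusted p under 0.05, beside 3.63% and 3.24% of all genes. The centred means of the complement list were 0.16, 0.2 and 0.01 across the control arrays and 0.15, -0.31 and -0.21 across the paced ones. Paced array 1 thus lay among the controls for this list. The macrophage markers were lower in all 3 paced arrays, and their part in the complement values was not tested.

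Interferon-stimulated genes were uneven between arrays of 1 group. Of 22 tested, 21 were below zero, with a median of -0.27, but 1 had an unadjusted p under 0.05 (4.55%, beside 2.78% of all genes). Their centred means were -0.36, 0.37 and 0.47 across the control arrays and -0.27, -0.44 and 0.23 across the paced ones, so control array 1 lay among the paced arrays and paced array 3 near the other controls. The median was -0.62 without control array 1, -0.49 without paced array 3 and -0.15 without control array 3. Without paced array 2 it was -0.19, with 17 of the 22 below zero and 5 above, and 0 at an unadjusted p under 0.05. USP18, which restrains interferon signalling, read 3.58, 4.83 and 4.42 in controls and 3.46, 3.39 and 3.62 in paced tissue, a difference of -0.79 (SE 0.29). STAT2, a transcription factor of the interferon response, read 5.51, 5.62 and 5.67 against 5.35, 5.26 and 5.49, a difference of -0.23. The 14 antigen presentation genes had a median of -0.04 and the 27 cytokine, chemokine and NF-kappaB genes one of -0.04. CXCL2, a neutrophil chemokine, read 4.88, 4.78 and 5.05 in control tissue and 5.28, 5.18 and 5.36 in paced arrays, a difference of 0.37 (SE 0.14). Other probe sets of CXCL2 gave 0.16, 0.48 and 0.37. Markers of T, B and natural killer cells had a median of 0.04 and those of neutrophils and mast cells one of -0.03.

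**Figure D4:**
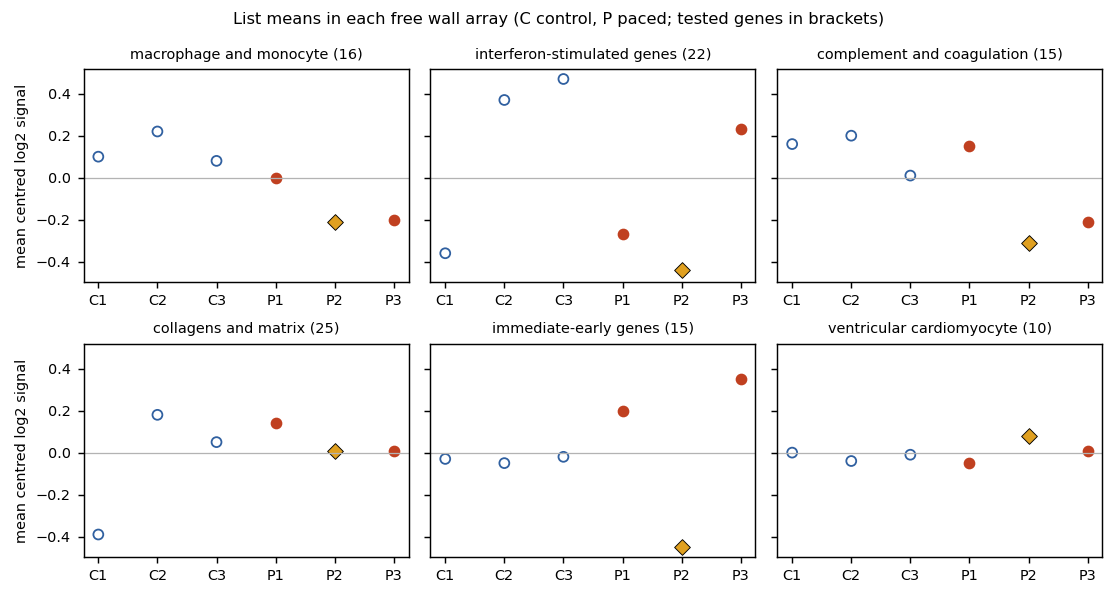
Each panel is a gene list and each symbol 1 free wall array (C control, P paced, the diamond is paced array 2), with the mean log2 signal of the tested genes, each centred over the 6 arrays, on the vertical axis. The macrophage means of the control arrays (0.08 to 0.22) lie above those of the paced arrays (-0.21 to 0), while interferon-stimulated and collagen genes have control array 1 low (-0.36 and -0.39). The ventricular cardiomyocyte means stay between -0.05 and 0.08.

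Stress and timing genes included some of the larger single differences. Of 15 circadian clock genes, 9 were below zero (median -0.22, but -0.08 without paced array 2 and -0.11 without control array 1). NFIL3, a repressor of clock output genes, read 7.86, 6.97 and 6.19 in controls and 6.06, 5.47 and 6.54 in paced arrays, a difference of -0.98 with overlapping groups (SE 0.45). Without paced array 2 the NFIL3 difference was -0.71. CRY2, a core clock repressor, read 5.89, 6.21 and 6.02 against 6.41, 6.4 and 6.23, a difference of 0.31. The time of day of sampling is not given in the labels. The 15 immediate-early genes, which respond within minutes to stimulation, had a median of 0.14 with 11 above zero, and a median of 0.01 without paced array 3. Their centred means were even in the control arrays (-0.05 to -0.02) and spread in the paced arrays, at 0.2, -0.45 and 0.35 in paced arrays 1, 2 and 3. The median member differed by only -0.12 between paced array 2 and the mean of the other paced arrays. Some members were far lower in paced array 2. Examples picked after their values were seen were NR4A3, at 5.39 against 8.35 to 9.85, and ATF3, at 4.78 against 5.99 to 8.25. IER3, an early stress-response gene, read 5.06, 5.01 and 5.27 in control tissue and 5.78, 5.47 and 5.37 in paced tissue, a difference of 0.43 (SE 0.20).

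Other stress lists had medians near zero. The 22 hypoxia and angiogenesis genes had a median of -0.03. HIF3A, a hypoxia-inducible factor subunit, read 5.19, 4.99 and 5.15 in controls and 4.82, 4.73 and 4.84 in paced arrays, a difference of -0.31 (SE 0.12), and ADM, the vasodilator adrenomedullin, had one of -0.29. The 25 heat shock and unfolded protein response genes had a median of 0.03, the 22 genes of ubiquitin ligases, atrophy and autophagy one of -0.06 and the 19 oxidative stress genes one of -0.03. DDIT3, a transcription factor of the unfolded protein response, read 6.54, 6.03 and 6.01 against 5.61, 5.67 and 6.03, a difference of -0.42 (SE 0.18). FBXO32, the atrophy ubiquitin ligase atrogin-1, had a difference of -0.42 and FOXO1, a transcription factor of the same programme, one of -0.4. GP91-PHOX, the catalytic subunit of the phagocyte NADPH oxidase, read 5.3, 5.42 and 5.44 in control tissue and 5.11, 4.24 and 5.16 in paced tissue. Its difference of -0.55 was -0.25 without paced array 2.

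The 11 cell cycle genes had a median of -0.14, with 8 below zero, while their member with the smallest p was on the other side. CENPU, a centromere protein, read 3.87, 3.94 and 5.13 in controls and 5.34, 4.81 and 6.08 in paced arrays, a difference of 1.1 (SE 0.42). Control array 3 overlapped the paced arrays for this gene. The 14 apoptosis and p53 genes had a median of -0.02, the 19 insulin and growth signalling genes one of -0.01 and the 15 ribosomal protein genes one of 0.02.

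Markers of the other cells that a block of ventricular wall can hold mostly had medians near zero. The 14 vascular endothelium markers had a median of 0.06. The 12 smooth muscle and pericyte markers had a median of 0.12 with 10 above zero, which was 0.01 without control array 1. CNN1, the smooth muscle protein calponin, read 4.81, 5.08 and 5.13 in control tissue and 5.84, 5.93 and 4.83 in paced arrays, a difference of 0.53 with paced array 3 among the controls, and 0.33 without paced array 2. Adipocyte markers had a median of -0.04, Schwann cell and neuron markers 0 and skeletal muscle markers 0.02. The 5 tested mesothelium markers were all above zero with a median of 0.14, which turned to -0.17 without paced array 2. Their centred mean in that array was 0.44, against -0.18 to 0 in the other 5, and the erythroid mean was 0.36 against -0.17 to 0. The 7 tested erythroid markers had a median of 0.04, which turned to -0.15 without paced array 2. At an unadjusted p under 0.05, 1 was higher and 1 lower (14.3% each, beside 1.87% and 2.78% of all genes). SLC25A37, the lower one, read 5.35, 5.24 and 5.21 in controls and 5.08, 5.1 and 4.76 in paced tissue, a difference of -0.29 (-0.35 without paced array 2). TFRC, the transferrin receptor through which cells take up iron, read 8.47, 9.19 and 9.22 against 9.93, 9.81 and 9.16. Its difference was 0.67 (SE 0.30), and 0.585 without paced array 2.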

How the data were processed

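The deposited values are log2 signals which the authors made by RMA (Affymetrix Expression Console 1.4), per the submitters' processing notes. RMA corrects background, normalises between arrays and summarises probes. The array's annotation build is not given in the sources used here. Of 27558 probe sets, 13323 had 1 gene symbol, 357 several and 13878 none. The filter kept 20666 probe sets with a mean log2 above the 25th percentile over 12 arrays (2.9983), and each of 10007 genes was taken at its brightest probe set. Group means of all 12 arrays, 4 groups of 3, were compared in R 4.3.3 by limma 3.58.1 (8 residual and 3.68 prior degrees of freedom). Tests were two-sided, with Benjamini-Hochberg adjustment over all probe sets tested. The code was tested on simulated data. An exact permutation test of 3 against 3 arrays cannot go below 0.1.

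Named genes were the 12 with the largest difference in each direction among those called and then those at an unadjusted p under 0.01 with no overlap, 6 by the same criteria without paced array 2, up to 3 of smallest p per list, and NPPA and NPPB. Uncharacterised loci gave up their place. Members and lists were chosen with earlier results of these data known. Alternatives changed the filter, the weighting, the centring, the arrays in the fit and the block.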

Additional observations from a re-analysis of the deposited data

How the results depend on the processing

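Only 3 arrays per group limit the precision, and at the median standard error a 95% interval reached 0.34 (log2) to either side. Arrays have no count depth. Of 2249 pairs of a named gene and an alternative, 2237 kept the direction, 12 reversed and 0 passed the adjusted threshold. With array weights LRRN4 (-0.241) and HCN4 (-0.004) reversed, and the others did so when 1 free wall array was left out. Over the latter fits HCN4 ranged from -0.043 to 0.257 and FLT1 from -0.625 to 0.02, both turning without paced array 2. LRRN4 ranged from -0.378 (without paced array 2) to 0.427, CLDN5 from -0.033 (without control array 1) to 0.327, and MYH1 from -0.133 to 0.007 (without paced array 1; 0.002 without control array 3). CASQ1 ranged from -0.297 (without paced array 1; -0.083 without control array 1) to 0.458, and NPPA from -1.37 to 0.53 (without control array 3; 0.223 without paced array 3). Of 440 pairs of a list median and an alternative, 29 moved by more than the replicate spread.

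The number of probe sets called was 1. It was 0 with the free wall arrays alone, 2 with array weights, 0 to 1 when 1 free wall array was left out, and 0 without any 1 septum array, an alternative chosen after seeing the data. Control and paced arrays of the same number did not deviate together (correlations of deviations from group means -0.2, -0.14 and 0.04), 0 of the 6 correlated best with its own number, and the numbers were not taken as pairs of the groups compared. Between the regions, whose arrays share the fit, same-numbered arrays had correlations of 0.32, 0.25 and 0.24 in controls and 0.09, -0.17 and -0.18 in paced pigs. With the number as a fixed replicate block 0 were called, and as a random block 1. The difference of probe set 15342515 stayed between -3.48 and -2.54 when an array was left out. It was -3.01 with adjusted p = 0.483 for free wall arrays alone and -3.01 with adjusted p = 0.0537 with the fixed replicate block. Genes at an unadjusted p under 0.01 without overlap numbered 26 higher and 57 lower. With free wall arrays alone they numbered 15 and 33. Leaving out 1 array gave 21 to 63 higher genes, most without paced array 2, and 34 to 68 lower genes, fewest without control array 2.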
